A study of Mus musculus with 9 samples.

Results

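The genes of 10 enzymes of glycolysis were followed through B cells and macrophages of mice: Hk1, Hk2, Gpi1, Pfkl, Aldoa, Gapdh, Pgk1, Pgam1, Eno1 and Ldha. They were taken by gene symbol from the 55322 gene records of the deposited expression table. They have 11 records there, since Aldoa has 2, and all 11 passed the filter on low values in every comparison. RNA came from wild-type C57BL/6 mice, with 3 libraries in each of 3 groups. CD11b+ B cells and CD11b- B cells came from the bone marrow (BM) of mice given LPS, a bacterial endotoxin, into the peritoneum 48 h earlier at 5 mg/kg. They were sorted out of BM from which T cells, NK cells, granulocytes and erythroid cells had first been depleted. Peritoneal macrophages (PMs, CD11b+F4/80+) were taken from the peritoneum of naive animals, without LPS. B cells and PMs therefore differed in cell type, tissue and treatment at once, and these cannot be told apart in any comparison with PMs. There was no B cell group without LPS, and the labels do not say whether the libraries came from separate mice, so p-values measure the spread between these libraries.

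Glycolysis turns glucose into pyruvate in the cytosol and yields ATP without oxygen. Hexokinases trap glucose as glucose 6-phosphate, and phosphofructokinase commits the sugar to the pathway. Aldolase splits it, the lower enzymes from Gapdh to enolase recover ATP and NADH, and lactate dehydrogenase reduces pyruvate to lactate and so returns NAD+. Activated macrophages and proliferating lymphocytes are both known for a high use of this pathway, and the hypoxia factor HIF-1 and Myc are known to act on many of its genes.

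The depth was 18014658 to 35251215 reads on genes per library. All 16 B cell markers were higher in both B cell groups than in PMs, and all 16 macrophage markers were lower, each past the threshold used below. Itgam, which encodes CD11b, was at 1.31 to 1.92 FPKM in CD11b+ B cells, 0.251 to 0.869 FPKM in CD11b- B cells and 251 to 358 FPKM in PMs. FPKM divides the reads of a gene by its exon length and by the depth of the library, so levels can be compared between genes as far as the exon length in the table holds. In bulk RNA, fewer cells that express a gene and less of its RNA per cell cannot be told apart.

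Upstream sequences of 5 members are printed here because the results turn on these genes: Hk1 and Hk2 encode isozymes whose order differed between B cells and PMs, Aldoa was lower in B cells, Pgk1 was not, and Ldha holds the most copies of the motif in capitals. Each is the 250 bases before a RefSeq transcription start on GRCm38.p6, written 5′ to 3′ on the strand of the gene. Capitals mark ACGTG or its reverse complement CACGT, the core of the element that HIF-1 is known to bind.
Hk1 (chr10:62379909-62380158, minus strand): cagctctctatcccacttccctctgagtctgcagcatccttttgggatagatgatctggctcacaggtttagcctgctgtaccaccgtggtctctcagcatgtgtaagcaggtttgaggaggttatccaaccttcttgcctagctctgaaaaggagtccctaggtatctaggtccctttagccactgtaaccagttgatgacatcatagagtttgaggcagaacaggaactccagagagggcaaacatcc
Hk2 (chr6:82774455-82774704, minus strand): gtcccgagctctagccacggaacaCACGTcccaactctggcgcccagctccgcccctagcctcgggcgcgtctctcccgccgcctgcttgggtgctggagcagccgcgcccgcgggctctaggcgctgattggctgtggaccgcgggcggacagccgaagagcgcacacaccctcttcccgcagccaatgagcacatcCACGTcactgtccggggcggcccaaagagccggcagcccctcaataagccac
Aldoa (chr7:126799179-126799428, minus strand): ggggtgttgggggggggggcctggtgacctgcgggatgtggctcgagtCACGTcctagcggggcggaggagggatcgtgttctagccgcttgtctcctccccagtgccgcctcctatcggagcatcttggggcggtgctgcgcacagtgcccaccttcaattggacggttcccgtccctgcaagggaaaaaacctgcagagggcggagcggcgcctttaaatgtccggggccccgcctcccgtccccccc
Pgk1 (chrX:106186850-106187099, plus strand): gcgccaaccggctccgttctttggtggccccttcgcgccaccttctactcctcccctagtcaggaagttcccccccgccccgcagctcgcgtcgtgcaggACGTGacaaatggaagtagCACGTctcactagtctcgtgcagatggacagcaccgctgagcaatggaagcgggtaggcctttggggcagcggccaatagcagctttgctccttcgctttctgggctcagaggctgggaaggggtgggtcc
Ldha (chr7:46845554-46845803, plus strand): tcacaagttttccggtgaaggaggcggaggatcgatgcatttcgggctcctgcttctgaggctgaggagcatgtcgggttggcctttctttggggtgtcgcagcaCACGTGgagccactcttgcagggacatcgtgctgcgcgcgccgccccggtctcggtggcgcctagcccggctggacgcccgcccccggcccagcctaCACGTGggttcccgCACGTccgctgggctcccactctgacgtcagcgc
Of the 10 genes, 5 had the letters ACGTG or CACGT in such a window, namely Hk2, Aldoa, Pgk1, Pgam1 and Ldha. Some genes have several starts, and 6 of the 16 windows of the members held them, against 16.6% of 32851 promoter windows of the same length. Windows of a gene can overlap, and the Aldoa windows with a match hold the same copy. Ldha had 5 matches, of which 4 belong to 2 copies of CACGTG, the E-box known to be bound by Myc and its partners, since each copy holds the shorter motif on both strands. CACGTG was in no window of the other members and in 6.02% of all windows. Hk1, Gpi1, Pfkl, Gapdh and Eno1 had none of these letters in their windows, which says only that the letters are not there. The letters GGGCGG or CCGCCC, the GC box known to be bound by Sp1, were also searched on both strands and were found in 8 of the 16 windows of the members and in 32.7% of all windows. Overlapping windows of Aldoa and of Eno1 were counted separately here. By gene, 6 of 10 members had these letters in any window. A match is a description of the sequence and not a site.

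**Figure D1:**
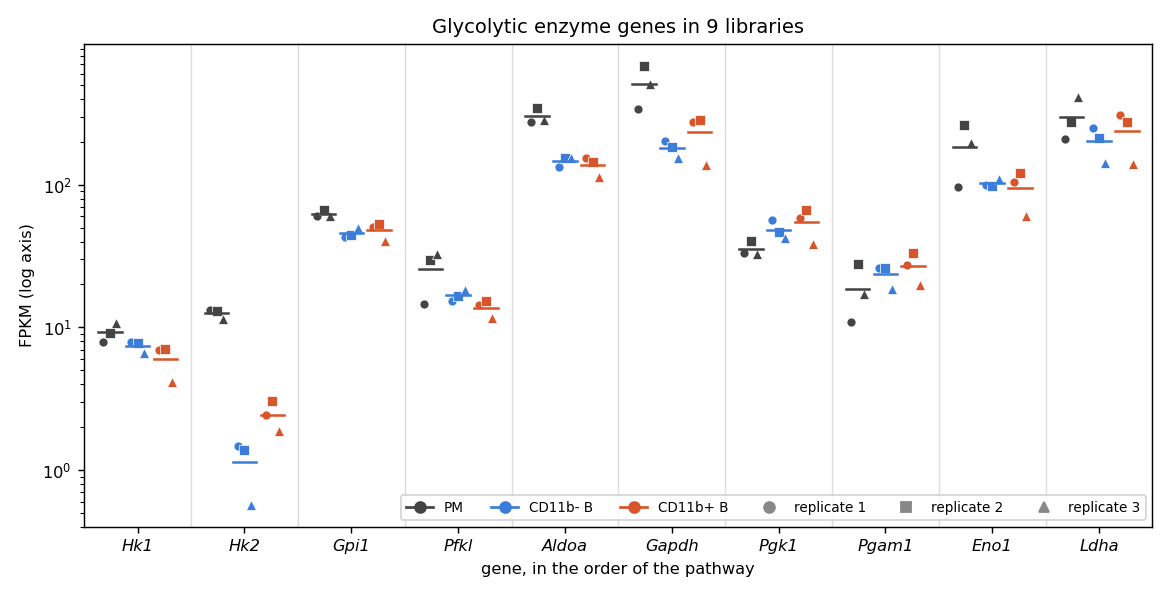
FPKM on a log axis of the 10 glycolytic enzyme genes in the 9 libraries, in pathway order. Points are libraries, their shapes give the replicate number and lines are group means. Hk2 is at 11.5 to 13.2 FPKM in PMs and at 0.570 to 3.04 FPKM in B cells, whereas the other genes lie closer together.

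Of the hexokinase genes, Hk2 separated the groups widely and Hk1 did not. Hk1 encodes the widely expressed hexokinase and lies on chromosome 10, 62268855 to 62379908, minus strand (GRCm38, GENCODE M21, as for all positions). It was at 7.92, 9.19 and 10.7 FPKM in PMs, 7.87, 7.77 and 6.63 FPKM in CD11b- B cells, and 6.96, 7.02 and 4.13 FPKM in CD11b+ B cells (replicates 1, 2 and 3, here and below). Every PM library was above every B cell library, but by little. Hk2 encodes the inducible isozyme and lies on chromosome 6, 82725025 to 82774454, minus strand. It was at 13.2, 13.1 and 11.5 FPKM in PMs, 1.48, 1.39 and 0.570 FPKM in CD11b- B cells, and 2.43, 3.04 and 1.87 FPKM in CD11b+ B cells. The 3 groups did not overlap. CD11b- B cells were lowest, CD11b+ B cells intermediate and PMs highest. Hk2 was thus above Hk1 in each PM library and below it in each of the 6 B cell libraries.

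Gpi1 encodes the isomerase that makes fructose 6-phosphate (chromosome 7, 34201330 to 34230336, minus strand). Its 3 PM libraries, at 60.8, 66.3 and 60.0 FPKM, were all above the B cell libraries, which were at 42.9, 44.7 and 49.7 FPKM without CD11b and 50.7, 52.9 and 40.1 FPKM with it. Pfkl, the liver type phosphofructokinase (chromosome 10, 77986947 to 78010083, minus strand), varied among PMs more than between groups. It was at 14.5, 29.5 and 32.7 FPKM in PMs, 15.4, 16.7 and 18.2 FPKM in CD11b- B cells, and 14.5, 15.2 and 11.7 FPKM in CD11b+ B cells. The first PM library lay among the B cells. Aldoa encodes aldolase A (chromosome 7, 126795234 to 126800751, minus strand). Its values of 277, 345 and 286 FPKM in PMs were well above the 134, 153 and 154 FPKM of CD11b- B cells and the 155, 145 and 114 FPKM of CD11b+ B cells, and the B cell groups overlapped. The second Aldoa record, 799 bases of exon just upstream of the first, stayed at or below 1.16 FPKM (at most 27 reads in a library) and is not described further.

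Gapdh, which oxidizes glyceraldehyde 3-phosphate (chromosome 6, 125161715 to 125166467, minus strand), was at 338, 682 and 509 FPKM in PMs. It was at 202, 186 and 155 FPKM in CD11b- B cells and at 277, 285 and 137 FPKM in CD11b+ B cells, so that PMs were above all B cells and the lowest of the 9 was the CD11b+ library numbered 3. Pgk1 encodes phosphoglycerate kinase, the first ATP-producing enzyme (chromosome X, 106187100 to 106203699, plus strand). It had another order, with 33.4, 40.3 and 33.0 FPKM in PMs, 56.3, 46.7 and 42.1 FPKM in CD11b- B cells, and 58.2, 66.8 and 38.7 FPKM in CD11b+ B cells. Pgam1, a phosphoglycerate mutase (chromosome 19, 41911923 to 41918660, plus strand), also had its highest mean in CD11b+ B cells. Its libraries overlapped throughout, at 11.0, 27.7 and 17.2 FPKM in PMs, 26.0, 26.1 and 18.6 FPKM in CD11b- B cells, and 27.6, 33.2 and 20.0 FPKM in CD11b+ B cells.

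Eno1 encodes enolase 1 (chromosome 4, 150236721 to 150248879, plus strand). It was at 95.8, 263 and 197 FPKM in PMs, 100, 98.5 and 109 FPKM in CD11b- B cells, and 105, 121 and 60.2 FPKM in CD11b+ B cells. As for Pfkl, the first PM library was at the level of the B cells and the other two were above it. Ldha encodes the A subunit of lactate dehydrogenase (chromosome 7, 46841475 to 46855627, plus strand). The PM libraries at 210, 278 and 415 FPKM overlapped with CD11b- B cells at 249, 213 and 143 FPKM and with CD11b+ B cells at 307, 274 and 139 FPKM.

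In PMs the order of the means ran from Gapdh (510 ± 172 FPKM, SD, n = 3) over Aldoa (303 ± 36.8), Ldha (301 ± 104), Eno1 (185 ± 84.1), Gpi1 (62.4 ± 3.41), Pgk1 (35.6 ± 4.09), Pfkl (25.6 ± 9.72), Pgam1 (18.6 ± 8.44) and Hk2 (12.6 ± 0.946) to Hk1 (9.28 ± 1.42). Aldoa was not above Ldha in every PM library, nor Pgam1 above Hk2. The other neighbours kept their order in all 3. In CD11b+ B cells Ldha (240 ± 88.9 FPKM) and Gapdh (233 ± 83.1) came first, and in CD11b- B cells likewise (202 ± 53.9 and 181 ± 23.7), without a constant order between them. Pgk1 and Gpi1 also changed places between B cell libraries. The member records together took 0.414 to 0.708% of reads in PMs. They took 0.278 to 0.322% in the CD11b- libraries, and in the CD11b+ libraries 0.219 to 0.390%.

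CD11b+ and CD11b- B cells, both from LPS-treated BM, were compared to see how far the pathway differed between the 2 B cell populations. None of the 11 records passed the threshold in limma on log2(FPKM + 1) (adjusted p below 0.05, Benjamini-Hochberg over 21778 genes), against a background of 0.0689% of genes called, all of them higher. The median difference was 0.06 over the members and 0.03 over all genes tested, on the log2 scale. By unadjusted p below 0.05, 1 record was reached, against 7.68% of all genes. It was Hk2, 2.14-fold higher in mean FPKM in CD11b+ B cells, with a log2 difference of 0.70 (SE 0.28, 95% interval 0.04 to 1.36, adjusted p = 0.643). Hk2 was higher in 3 of 3 libraries than in any CD11b- library, a separation that 8.63% of genes showed in this direction. Pfkl was lower without overlap, with a difference of -0.27 (SE 0.16, adjusted p = 0.700), as were 6.32% of genes. The Pfkl difference ranged from -0.34 to -0.16 when any 1 library was left out. The 95% intervals bound the differences of Gpi1 between -0.28 and 0.40, of Aldoa between -0.46 and 0.26, of Pgk1 between -0.35 and 0.64 and of Ldha between -0.54 and 0.96. Neither edgeR nor DESeq2 on the reads behind the table called a member here.

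Markers of other cells moved between these B cell groups. The summed FPKM of 16 neutrophil markers was 2.11 to 3.30 in CD11b- B cells and 666, 1595 and 219 in CD11b+ B cells. All 16 had a higher mean in CD11b+ B cells, and limma called 3 higher, whereas edgeR on the reads called 9 of 14. Ly6g, a defining marker, was at 1.34, 2.51 and 1.96 FPKM there, and at 0 in the other B cells except for 0.152 FPKM in the second library. The summed FPKM of 16 macrophage markers was 43.7, 44.6 and 61.9 in CD11b- B cells and 329, 307 and 127 in CD11b+ B cells, without overlap. Of the 15 tested, 14 had a higher mean in CD11b+ B cells. Limma called 0 of them and edgeR 2 of 14 higher. Adgre1, which encodes F4/80, was at a mean of 0.776 FPKM without CD11b and 2.94 FPKM with it, and the groups did not overlap. The sums of 8 plasma cell markers (105 to 188 against 270 to 672) and of 10 erythroid markers (at most 25.7 against at least 39.5) were also higher in each CD11b+ library, with 0 called by limma or edgeR. The same held for 10 monocyte markers (407 to 535 against 544 to 619, with Cd300e and Treml4 at 0 in CD11b- B cells) and 9 NK cell markers (1.88 to 2.87 against 4.25 to 7.17). Of the 5 NK cell markers tested, however, 3 had a higher mean in CD11b+ B cells and 2 a lower. Tbx21 was at 0.627 to 1.14 FPKM without CD11b and 3.24 to 3.46 FPKM with it. Klrb1c was at 0 in all CD11b+ libraries, and Klrd1 was at means of 0.481 FPKM without CD11b and 0.0298 FPKM with it. Hk2 was highest in the CD11b+ library with the most neutrophil marker RNA and lowest in that with the least. This order was not particular to Hk2. The second CD11b+ library was highest for 8 of 10 members and the library numbered 3 lowest for 10 of 10. Hk3, the hexokinase known from myeloid cells, followed the same order at 0.675, 2.27 and 0.177 FPKM. The summed FPKM of 15 proliferation markers was 433, 328 and 156 in CD11b- B cells and 708, 655 and 265 in CD11b+ B cells, so that the library numbered 3 was lowest in both groups, as it was for Hk2. The part of these markers in the Hk2 values was not tested.

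**Figure D2:**
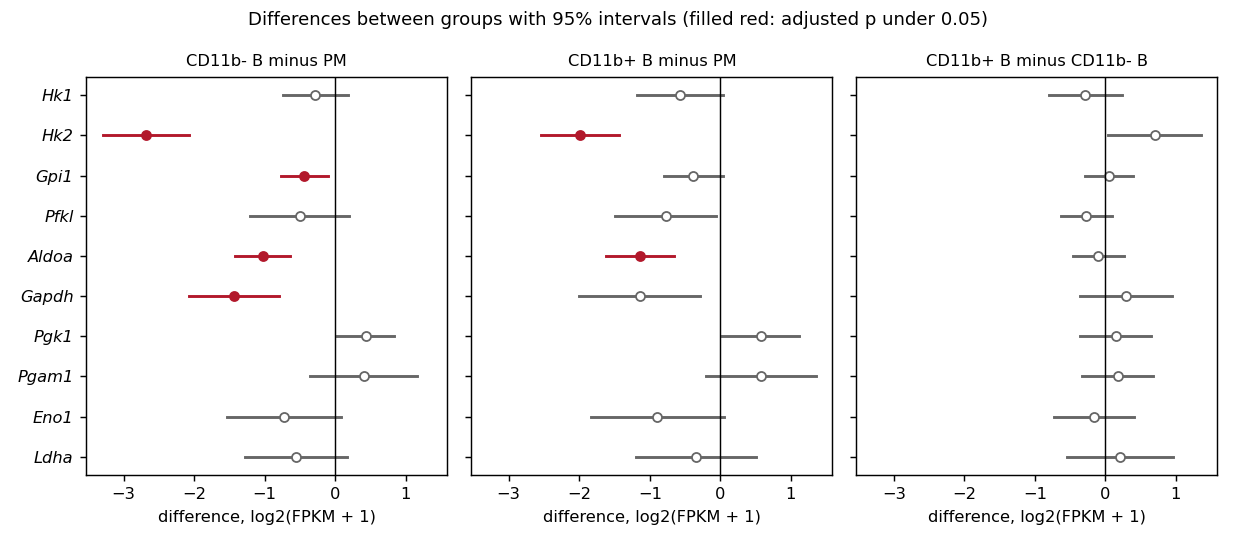
Difference between 2 groups for each gene on the log2(FPKM + 1) scale, with its 95% interval from limma, for the 3 comparisons. Filled red points passed an adjusted p of 0.05. Hk2 at -2.69 and -1.99 against PMs stands farthest from 0, and no gene is filled in the comparison of the B cell groups.

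CD11b+ B cells were compared with PMs to place the B cells that carry the myeloid integrin beside a myeloid cell. Hk2 and Aldoa were lower in the B cells and no member was higher, where 8.78% of all 22102 genes tested were called lower (15.9% of genes at least as abundant as the lowest member other than the second Aldoa record), 21.5% higher and 30.3% either way. In 5 records the B cell libraries lay below all PM libraries and in 0 above, as did 12.4% and 34.3% of all genes. Hk2 differed by -1.99 on the log2 scale (SE 0.24, adjusted p = 0.000564) and its mean was 0.195 of that in PMs. Aldoa differed by -1.13 (SE 0.21, adjusted p = 0.00486), a mean of 0.456 of the PM level. Both were lower in 3 of 3 libraries and passed in all 22 settings tried. Gapdh, at -1.14 (SE 0.37, adjusted p = 0.0505), missed the threshold, although its libraries did not overlap. The members had a median difference of -0.57, whereas the median of all genes was 0.25.

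Single libraries decided other members. Without the first PM library, Pfkl (-1.13, adjusted p = 0.00553), Gapdh (-1.41, adjusted p = 0.0268) and Eno1 (-1.31, adjusted p = 0.0231) were also lower, 5 in all. Without the CD11b+ library numbered 3, Pgk1 was higher in B cells (0.80, adjusted p = 0.0235), while with all libraries it was at 0.57 (SE 0.24, adjusted p = 0.106). Its partner in the lower pathway, Pgam1, was at 0.57 (SE 0.34, adjusted p = 0.241), and ranged from 0.26 to 0.89 when any 1 library was left out.

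The comparison of CD11b- B cells with PMs used the same PM libraries, so these comparisons are not independent and their values are only set side by side. Of the 11 records, 4 were called lower and none higher, beside 11% of 20985 genes called lower (18% of genes at least as abundant as the lowest member, the second Aldoa record again left out), 25.8% higher and 36.7% either way. B cell libraries lay below all PM libraries in 5 records and above in 1, against 15.2% and 36.1% of genes. Hk2 differed by -2.69 (SE 0.26, adjusted p = 0.000212), with a mean of 0.0912 of that in PMs. Gapdh differed by -1.44 (SE 0.27, adjusted p = 0.00542) and Aldoa by -1.03 (SE 0.17, adjusted p = 0.00258). Gpi1 was only just past the threshold, at -0.44 (SE 0.14, adjusted p = 0.0481), and lost its call without any 1 of 5 libraries, all except the first PM library. Without that library Pfkl (-0.86, adjusted p = 0.00601) and Eno1 (-1.14, adjusted p = 0.00323) were called as well. Pgk1 was at 0.43 (SE 0.17, adjusted p = 0.0939) with every B cell library above every PM library, and Pgam1 at 0.40 (SE 0.32, adjusted p = 0.361). When any 1 library was left out, Pgam1 ranged from 0.091 to 0.72. The median over the members was -0.51 and over all genes 0.24.

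How libraries are scaled to each other mattered for PMs. Of all calls between CD11b+ B cells and PMs, 71.0% were higher in B cells on FPKM but 51.0% when libraries were scaled by median ratios, and for CD11b- B cells 70.1% and 51.4%. The member medians then moved to -1.07 and -1.04, with medians of all genes at 0.11 and 0.06. Under that scaling 6 members were lower than PMs in each comparison, where 12.2% and 15.1% of genes were lower, adding Hk1, Gpi1, Pfkl and Gapdh for CD11b+ B cells and Hk1 and Ldha for CD11b- B cells. With edgeR on the whole reads, 7 and 8 of 10 were lower, with Hk1, Hk2, Gpi1, Pfkl, Aldoa, Gapdh and Eno1 in both and Ldha for CD11b- B cells. The background under edgeR was 18.1% and 20.9% of genes called lower. Pgk1 and Pgam1, higher in B cells on FPKM, turned to -0.12 and -0.14 in CD11b- B cells under median-ratio scaling, so there their direction rests on the scaling. In CD11b+ B cells they were at 0.021 and 0.033 under that scaling. No scaling called a member higher in B cells.

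**Figure D3:**
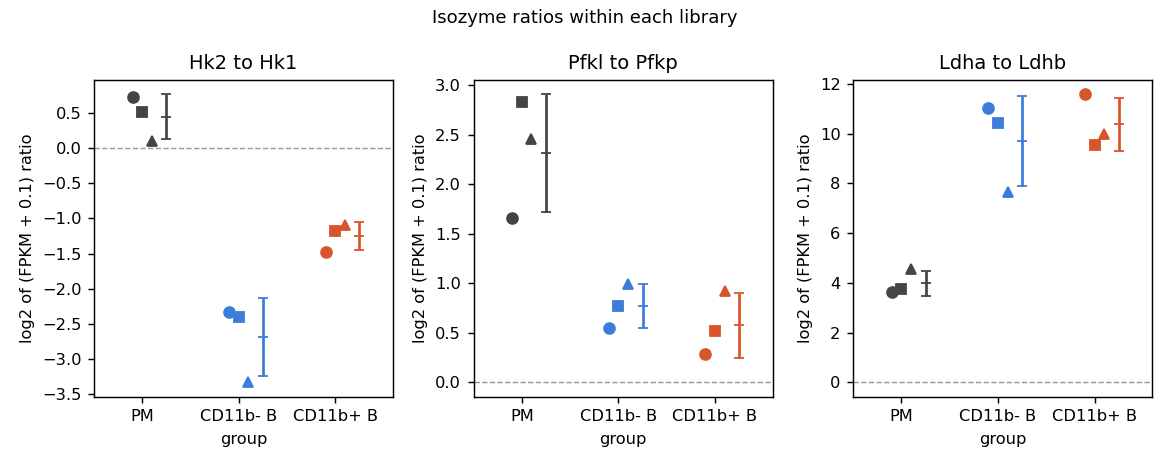
Log2 ratio of the FPKM (plus 0.1) of 2 isozyme genes within each library, by group. Points are libraries, shapes give the replicate number, and bars are mean ± SD (n = 3). The Hk2 to Hk1 ratio is above 0 in all PMs and below -1 in all B cells, and the 3 groups do not overlap.

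Ratios between isozyme genes within a library depend little on that scaling where both genes lie well above the 0.1 FPKM added to each, which holds for hexokinases and phosphofructokinases but not for Ldhb in B cells. The log2 ratio of Hk2 to Hk1 was 0.44 ± 0.32 (SD, n = 3) in PMs, -1.25 ± 0.20 in CD11b+ B cells and -2.69 ± 0.56 in CD11b- B cells. None of the 3 groups overlapped, and each pair gave p = 0.1 in the exact two-sided permutation test, the smallest that 3 against 3 libraries allow (0.129 after adjustment over 9 comparisons). CD11b+ B cells differed from CD11b- B cells by 1.44, which stayed between 1.12 and 1.61 when any 1 library was left out. The log2 ratio of Pfkl to Pfkp, the platelet type phosphofructokinase, was 2.31 ± 0.60 in PMs, 0.77 ± 0.22 in CD11b- B cells and 0.58 ± 0.33 in CD11b+ B cells. Both B cell groups lay below PMs without overlap (exact permutation p = 0.1) and overlapped with each other (p = 0.4 by the same exact test). Pfkp itself was at 4.07 to 5.89 FPKM in PMs and 6.09 to 11.9 FPKM in B cells.

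Ldhb, the B subunit of lactate dehydrogenase, which favours the use of lactate, was at 17.0, 20.5 and 17.4 FPKM in PMs. In B cells it did not exceed 0.616 FPKM, and the first CD11b+ library had no read. The log2 ratio of Ldha to Ldhb was therefore 3.98 ± 0.51 in PMs but 9.70 ± 1.81 in CD11b- and 10.4 ± 1.07 in CD11b+ B cells, where it rests on 0 to 31 Ldhb reads per library and on the added 0.1. The B cell groups overlapped (difference 0.68, p = 0.7 in the exact permutation test). In B cells lactate dehydrogenase RNA was almost entirely that of Ldha, whereas the level of Ldha itself overlapped among the 3 groups.

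**Figure D4:**
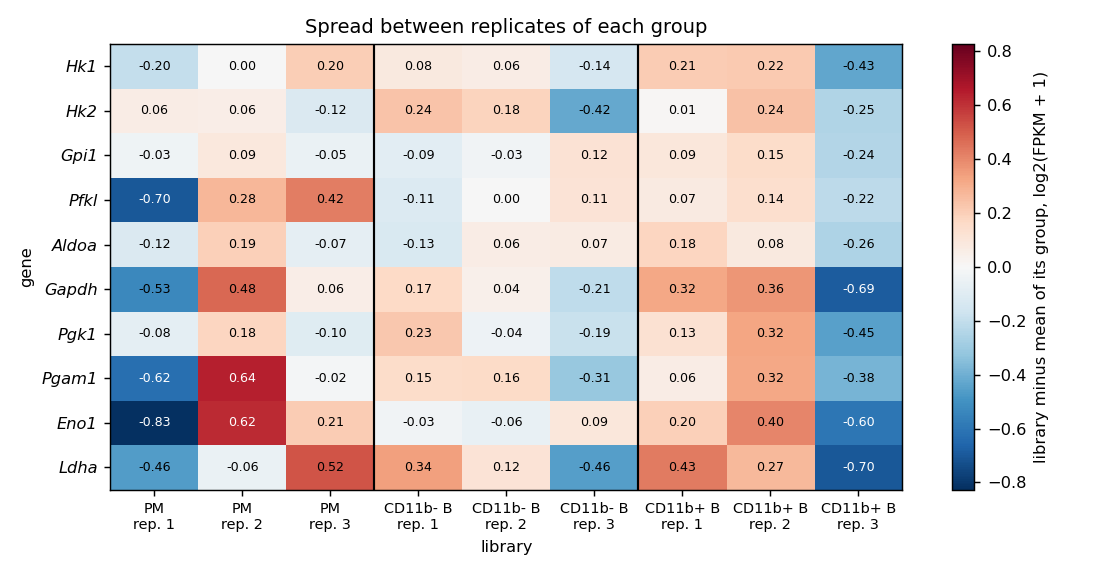
Deviation of each library from the mean of its group on the log2(FPKM + 1) scale, with red above and blue below. The column of the CD11b+ library numbered 3 is blue for all 10 genes, from -0.22 for Pfkl to -0.70 for Ldha, and the first PM library reaches -0.83 for Eno1.

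Members often deviated together within a library. The CD11b+ library numbered 3 was the lowest of its group for 10 of 10 members, at a median of 0.639 of the mean of the other two (range 0.479 to 0.786). Over all 12452 genes that averaged 1 FPKM or more over the 9 libraries and were detected in that group, it was the lowest for 43.9% and its median was 0.958. The first PM library was lowest for 7 of 10 members, with Pfkl, Gapdh, Pgam1 and Eno1 farthest below. It was lowest for 29.0% of all genes, and genes in general were at a median of 1.12 of the mean of the others. The CD11b- library numbered 3 was not low throughout, being lowest for 6 of 10 members and highest for 4, and lowest for 38.7% of all genes. Beside this, the summed FPKM of 8 plasma cell markers was 672 in the CD11b+ library numbered 3 and 311 and 270 in the others. That gap is mostly Jchain, since the other 7 sum to 223 against 210 and 186. The sum of 16 macrophage markers, 127 against 329 and 307, differed mostly by Lyz2, without which it was 61.8 against 68.1 and 66.8. In PMs the first library had 26932 against 53524 and 64242, or 8275 against 12014 and 11236 without Lyz2, and it was lowest for 9 of the 16 markers (Adgre1, Csf1r and Cd14 among them) and highest for 6 (Itgam and Timd4 among them). The CD11b+ library numbered 3 was also lowest of its group in the proliferation sum (265 against 708 and 655) and the neutrophil sum (219 against 666 and 1595). Its sum of 10 T cell markers was instead the highest (33.8 against 14.3 and 15.7), with Il7r at 11.0 against 0.694 and 0.574 FPKM. The CD11b- library numbered 3 also had the highest T cell sum of its group (56.0 against 12.9 and 12.2). The part of these markers in the spread was not tested.

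Correlations of these deviations over the 9 libraries had a median of 0.63 among the 45 pairs of members, of which 36 exceeded 0.5 (80.0%). Among all pairs of genes averaging 10 FPKM or more, the median was 0.02 and 19.4% exceeded 0.5. Hk1 and Ldha went together most (r = 0.956), followed by Gapdh with Pgam1 (0.911) and with Eno1 (0.909). Hk2 was mixed, with 5 of its 9 values above 0.5 (0.526 with Gapdh to 0.766 with Pgk1) and the others at -0.11 with Pfkl, 0.13 with Gpi1 and 0.18 with Eno1 and Aldoa. All pairs share the same 9 libraries, so these values describe them and carry no test. Over the 9 libraries, groups included, the 5 genes outside the pathway lists whose log2 level was most like the mean of the members, of 4918 genes, included Pepd (r = 0.957), Pdia3 (0.956), Tmem109 (0.941) and Prdx6 (0.938).

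**Figure D5:**
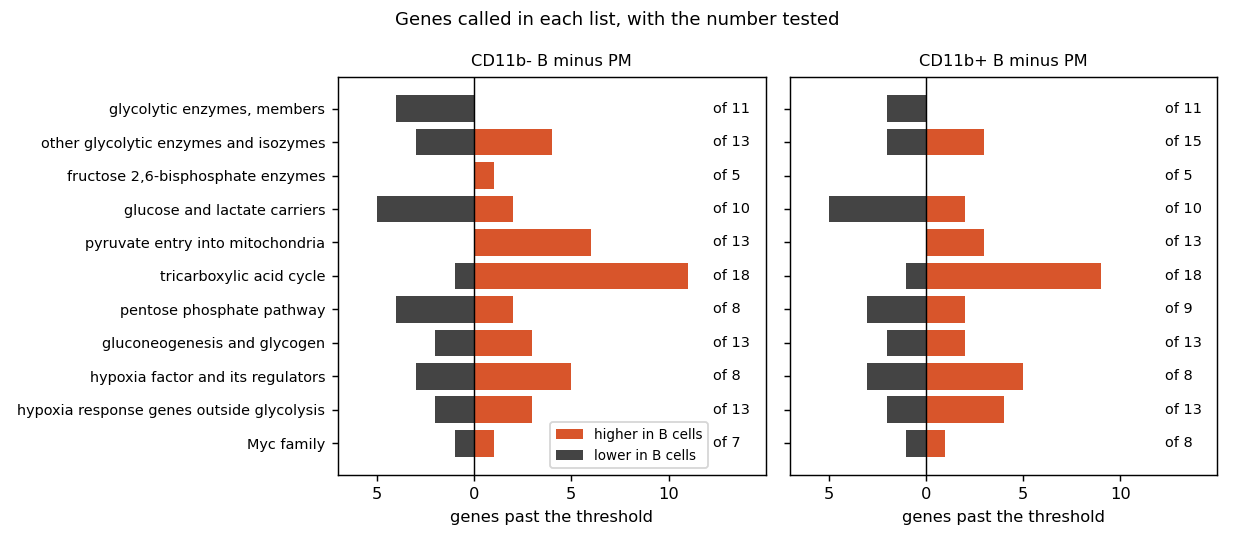
Number of genes called higher (right) and lower (left) in B cells than in PMs on FPKM, for the glycolytic genes and 10 neighbouring lists, with the number tested beside each. The enzyme genes have calls on the left only, 4 for CD11b- and 2 for CD11b+ B cells, and carriers have 5 on the left and 2 on the right in both.

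The other genes of sugar metabolism were counted in 10 lists. None of them was called between the B cell groups. Against PMs, glucose and lactate carriers gave 5 lower and 2 higher of 10 tested in both comparisons, and the same numbers under median-ratio scaling. On FPKM 8.78% and 11% of all genes were called lower and 21.5% and 25.8% higher. Slc2a1, the basal glucose carrier, was at 4.58, 2.54 and 1.34 FPKM in PMs and at 9.45 to 14.5 FPKM in B cells. It was 4.06-fold higher in CD11b+ B cells (log2 difference 1.78, SE 0.35, adjusted p = 0.00610) and 5.01-fold in CD11b- B cells (2.07, SE 0.32, adjusted p = 0.00212). Slc2a3, a glucose carrier of high affinity, was at or below 0.0996 FPKM in PMs and at 2.44 to 5.56 FPKM in B cells (adjusted p = 0.000750 and 0.00122). Slc2a6, in contrast, was at 29.2 to 42.8 FPKM in PMs and at 2.21 to 3.91 FPKM in B cells (adjusted p = 3.33e-05 and 4.90e-05). Slc16a3, which exports lactate, and Bsg, the chaperone of lactate carriers, were also lower, by -2.35 and -1.61 in CD11b+ and by -2.69 and -1.74 in CD11b- B cells.

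Of the other glycolytic enzymes and isozymes, 3 were higher and 2 lower of 15 tested in CD11b+ B cells, and 4 higher and 3 lower of 13 in CD11b- B cells. With median-ratio scaling 1 was higher and 3 were lower in both comparisons, so most of the higher calls rest on the scaling. Of all genes, 21.5% and 25.8% were called higher and 8.78% and 11% lower on FPKM. Hk3 and Ldhb were lower in both. Hk3, at 11.2, 32.4 and 21.3 FPKM in PMs, differed by -3.49 (adjusted p = 0.00119) and -4.19 (adjusted p = 0.000171). Adpgk, which phosphorylates glucose with ADP, was higher on FPKM by 1.25 and 1.35, and lost both calls under median-ratio scaling (adjusted p = 0.160 and 0.0586). Pkm, the last enzyme before pyruvate and the most abundant of this list, was not called at 53.1 to 99.1 FPKM in PMs, 88.5 to 101 FPKM in CD11b- and 63.8 to 125 FPKM in CD11b+ B cells. Its difference changed sign with median-ratio scaling, from 0.32 and 0.22 to -0.24 and -0.33. Within its group the CD11b+ library numbered 3 was again lowest, while the lowest of all 9 was the first PM library.

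Beyond pyruvate, the tricarboxylic acid cycle had 9 of 18 genes higher and 1 lower in CD11b+ B cells on FPKM, and 11 higher and 1 lower in CD11b- B cells. Under median-ratio scaling these counts were 0 higher and 2 lower, and 2 higher and 2 lower, so the higher calls rest mostly on the scaling. Among all genes 21.5% and 25.8% were called higher on FPKM and 8.78% and 11% lower. With median-ratio scaling 12.6% and 15.9% were higher and 12.2% and 15.1% lower. Idh2, the mitochondrial isocitrate dehydrogenase that makes NADPH, was the lower gene in CD11b+ B cells under FPKM, at -1.25 (adjusted p = 0.0124). In the pentose phosphate pathway, which branches off at glucose 6-phosphate, 3 of 9 and 4 of 8 genes were lower, among them Pgd at -1.18 and -1.08, and 2 were higher in each. Median-ratio scaling gave 4 lower in both comparisons, with 0 and 1 higher. The higher calls of this pathway on FPKM were near the share of all genes. Pygl, the glycogen phosphorylase of liver and myeloid cells, was at 84.7 FPKM in PMs on average and at 1.38 and 0.439 FPKM in the B cell groups. Pfkfb3, the enzyme that makes the activator of phosphofructokinase, was higher in CD11b- B cells on FPKM (0.76, adjusted p = 0.0436). Under median-ratio scaling it was at 0.19 and 0.31 and the call was lost.

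Among the factors known to act on these genes, all 8 measured genes of the hypoxia factor and its regulators were called in each comparison with PMs on FPKM, 5 higher and 3 lower in the B cells, where 21.5% and 25.8% of all genes were higher and 8.78% and 11% lower. Under median-ratio scaling 1 was higher and 3 lower in CD11b+ and 4 higher and 3 lower in CD11b- B cells, with 12.6% and 15.9% of all genes higher. Hif1a was at 7.48, 4.54 and 8.54 FPKM in PMs and at 12.6 to 24.1 FPKM in B cells, a difference of 1.16 (adjusted p = 0.0183) and 1.50 (adjusted p = 0.00290). Its call in CD11b+ B cells was lost under median-ratio scaling (0.65, adjusted p = 0.121) and that in CD11b- B cells was not (0.99, adjusted p = 0.0142). The oxygen sensors Egln3 and Egln1 were lower, by -3.24 and -2.18 in CD11b+ and by -3.23 and -2.89 in CD11b- B cells. Egln2, the other oxygen sensor of the family, was higher, at means of 13.6 FPKM in PMs, 44.7 FPKM in CD11b+ and 47.1 FPKM in CD11b- B cells (differences of 1.64 and 1.72, adjusted p = 0.000428 and 0.000206). Myc was at means of 38.3 FPKM in PMs, 37.9 FPKM in CD11b- and 39.9 FPKM in CD11b+ B cells, with no call. Mlxipl, a sugar-responsive partner in the Myc network, was at a mean of 106 FPKM in PMs and at 0.0908 and 0.138 FPKM in the B cell groups.

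The reads of 3 members could be shared with genes on the other strand, since no source used here gives the strand setting of the counting. Hk1 shares 157 exon bases with Hk1os, Gapdh 68 with Iffo1 and Aldoa 25 with Tlcd3b, at most 1.84% of their exons. Glycolytic genes also have many near copies in the genome. The 17 records recognised by symbol reached at most 0.827 FPKM, so reads assigned to them were few, but how the counting divided reads between a gene and its copies is not stated and the member values are uncertain to that degree.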

How the data were processed

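Libraries were made by the authors with the SMART-seq HT kit, which copies whole transcripts, and sequenced on DNBSEQ. Per the submitters' processing notes and the study's methods, reads were trimmed (Trim Galore 0.4.4, Trimmomatic 0.36, cutadapt 1.16), mapped to GRCm38 with STAR 2.7.2b and counted with featureCounts 1.6.1. The notes also name GRCm39, and the positions in the tables mostly differ from GENCODE M21, so positions here are those of M21 by identifier. The deposited FPKM values are counts divided by exon length and by reads on genes, with the exon length in a column of its own. The deposited second table holds, as a normalized signal, counts divided by a size factor for 11063 genes selected by a p-value, among them 8 of the 11 member records. Its column of gene clusters was not used.

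Whole reads were recovered here from both tables (100% of values within 0.05 of a read). Groups and replicate numbers came from the sample titles. The members and gene lists were chosen with earlier results of these data known. All 10 members are named; of each list at most 6 genes are named, those past the threshold with the largest change and the most abundant gene. Pfkp was fixed for a ratio, and Hif1a and the cell markers were named after their values were seen. The main test was limma 3.58.1 (trend, two-sided; R 4.3.3) on log2(FPKM + 1) for genes averaging 0.05 FPKM or more over the 6 libraries compared, with Benjamini-Hochberg adjustment. Fold changes on this scale understate those of low genes. Isozyme ratios used an exact permutation test. Alternatives were pseudocounts of 0.1 and 0.01, no filter and a minimum of 1, all 9 libraries in 1 fit, replicate blocks, median-ratio and quantile scaling, FPKM without immunoglobulin genes, no trend, limma on the second table, edgeR 4.0.16 and DESeq2 1.42.0 on the recovered reads, and each library left out. Limma and edgeR were also run on data simulated for CD11b+ against CD11b- B cells. Reads of amplified cDNA without molecular identifiers are not molecules, so depth limits only the counting error. Promoters were read from RefSeq (GRCm38.p6), where all 10 symbols matched, and of several starts the one with most GENCODE coding transcripts within 100 bases was printed. Matches were counted over all windows. Of the 5 genes most like the members in level, 1 is not reported here.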

Additional observations from a re-analysis of the deposited data

How the results depend on the processing

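In CD11b+ against CD11b- B cells 0 members were called under every alternative run. Against PMs, Hk2 and Aldoa were lower under every alternative run in both comparisons. For CD11b+ B cells the main test called 2 members. The count was 4 with all 9 libraries in one fit, 6 with median-ratio scaling and 5 with quantile normalization. It was 7 with edgeR with a filter, 8 without, and 7 with DESeq2 on all reads. Leaving out 1 library gave 2 to 5. On the second table (8 members) limma, edgeR and DESeq2 each called 7. That table holds only genes already selected by a p-value, so calls there were favoured in advance. Of all genes, 12.2% were called lower with median-ratio scaling and 18.1% with edgeR with a filter. Quantile normalization called 2690 of 22102 genes lower, and DESeq2 on all reads 3418 of 22203. For CD11b- B cells the count of 4 became 8 with edgeR with or without a filter and with DESeq2 on all reads. It was also 8 with limma, edgeR and DESeq2 on the second table, again after that selection. Leaving out 1 library gave 3 to 6. Here edgeR with a filter called 20.9% of all genes lower, and DESeq2 on all reads 4030 of 20982. No share of all genes is given for the other settings. Where scaling is the only change, it accounts for the added calls, and otherwise the cause was not tested.

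Replicate numbers do not mark shared mice in the labels. Deviations of CD11b+ and CD11b- libraries with the same title number correlated at 0.284, -0.02 and 0.206. Not every pair exceeded 0.1, so the numbers were not treated as pairs, although the 2 pairs that also share a description number had the highest values of the 9 pairings of CD11b+ with CD11b- libraries. With the replicate block by title number the counts were 0 between B cell groups, 2 for CD11b+ and 3 for CD11b- B cells against PMs, where Gpi1 lost its call (adjusted p = 0.123). The block by description number was possible between B cells only, with 2 pairs and 0 members called, and turned Gpi1 to -0.034 and Pgk1 to -0.037; it was not run against PMs, which share 1 number.

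Directions that turned belonged to uncalled values. In CD11b- B cells against PMs, Pgk1 turned to -0.12 with median-ratio scaling, -0.086 and -0.00089 with edgeR with and without a filter and -0.11 with DESeq2, and Pgam1 to -0.14, -0.22, -0.14 and -0.24, and to -0.0071 with quantile normalization. In CD11b+ B cells Pgam1 turned to -0.013 with edgeR and -0.020 with DESeq2. The second Aldoa record turned to 0.090, 0.31 and 0.22 at a pseudocount of 0.1 and to 0.80, 1.92 and 1.12 at 0.01 (CD11b+ against CD11b-, CD11b+ and CD11b- against PMs). Without 1 library, the difference between B cell groups ranged from -0.19 to 0.027 for Aldoa, -0.17 to 0.13 for its second record, -0.36 to 0.14 for Eno1, -0.019 to 0.18 for Gpi1, -0.018 to 0.56 for Ldha and -0.017 to 0.37 for Pgk1. Against PMs it ranged from -0.58 to 0.0050 for Ldha in CD11b+ B cells, and for the second Aldoa record from -0.28 to 0.28 and -0.26 to 0.30. Without both B cell libraries numbered 3, chosen after seeing the data, Aldoa was at 0.060 and Eno1 at 0.18. The log2 ratio of Ldha to Ldhb differed between B cell groups by -0.35 to 1.34 without 1 library. The precision is limited by 3 libraries per group, and for Ldhb in B cells by its few reads.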
